A study of Mus musculus with 2 samples.

Results

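Ribosomal protein genes were described across the cell classes of 2 single-cell RNA sequencing samples of mouse brain. The genes were those whose symbol starts with Rps or Rpl and a digit, without pseudogene names that hold -ps, and with at least 50 unique molecular identifiers (UMIs, each standing for 1 captured RNA molecule) in the cells kept. This name rule took in 92 of the 31053 features of the count tables, and 91 reached the minimum. Rpl10l, a retrogene copy of Rpl10, had 33 UMIs and was left out. Of the 91 genes, 73 code for ribosomal proteins (30 of the small and 43 of the large subunit) and 7 are paralogues. The other 11 code for no ribosomal protein and share only the letters: 10 are kinases of the Rps6k families and 1 is Rps19bp1, which codes for a protein that binds Rps19. The 91 genes held 4896272 UMIs, of which 0.511% came from those 11 genes and 1.84% from the paralogues.

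The sorted sample held FACS-sorted brain cells of male mice aged 3 and 12 months. The total sample held unsorted brain cells of male and female mice together, aged 2 and 24 months, although the age label gives 240 for the older mice. Each sample pooled wild type mice with STING-KO mice, which lack STING, the adaptor that relays the sensing of DNA in the cytosol, and 2 mice were grouped per genotype. The barcodes of each table carry 4 suffixes, whose age and genotype the labels do not give. Age, sex, sorting, the runs of the libraries and possibly their chemistry version therefore differ together between the samples and cannot be told apart. The sample description and the protocol do not give the same chemistry version. With 1 sample per group there is no test between them. Intervals are 95% exact intervals that cover counting error only, and the range over suffixes shows the spread within a sample.

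The ribosome joins a small subunit, which reads the messenger RNA, to a large subunit, which forms the peptide bond, and each ribosomal protein is present as a single copy in nearly every ribosome. The messenger RNAs of ribosomal proteins start with a C followed by a run of pyrimidines, the terminal oligopyrimidine (TOP) motif. Through this motif the mTOR pathway and its RNA-binding partner Larp1 set how much of these RNAs is translated, so an RNA level is not a translation rate. These messengers are short, stable and mostly cytoplasmic, while Malat1, a long noncoding RNA, stays in the nucleus.

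The start sites are shown for genes whose values stand apart later: those with the most uneven shares over cell classes (Rpl41, Rpl38, Rpl22l1, Rpl12, Rpl28), those with high (Rps21, Rps10) or low (Rpl35, Rps27) ratios between the samples, and Rps27rt, a near-identical copy of Rps27. Each sequence reads 5′ to 3′ on the gene's strand, covers 15 bases on each side of the RefSeq start on GRCm38.p6, and has its longest pyrimidine run of at least 5 bases in capitals.
Rpl41 (chr10:128549154-128549183, minus strand): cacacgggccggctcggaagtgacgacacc
Rpl38 (chr11:114668565-114668594, plus strand): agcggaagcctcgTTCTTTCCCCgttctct
Rpl22l1 (chr3:28805493-28805522, plus strand): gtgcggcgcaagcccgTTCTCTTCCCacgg
Rpl12 (chr2:32961697-32961726, plus strand): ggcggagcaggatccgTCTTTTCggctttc
Rpl28 (chr7:4792950-4792979, plus strand): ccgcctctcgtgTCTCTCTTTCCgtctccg
Rps21 (chr2:180257364-180257393, plus strand): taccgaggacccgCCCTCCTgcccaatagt
Rps10 (chr17:27635230-27635259, minus strand): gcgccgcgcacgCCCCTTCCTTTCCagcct
Rpl35 (chr2:39005117-39005146, minus strand): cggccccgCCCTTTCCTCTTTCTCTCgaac
Rps27 (chr3:90213634-90213663, minus strand): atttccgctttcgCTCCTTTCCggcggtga
Rps27rt (chr9:114982725-114982754, minus strand): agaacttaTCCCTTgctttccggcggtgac
The runs in capitals were 18 bases long in Rpl35, 13 in Rps10, 11 in Rpl28 and 7 in Rps21. Rpl41 had no run of 5 in this window. A promoter sequence was found for 61 of the 80 ribosomal protein and paralogue genes. CTTTCC lay on the gene's strand within 30 bases of the start in 13 of these 61 (21.3%), against 3.40% of 27025 promoters. CCGGAAG, on either strand from 250 bases before to 50 after the start, was in 24 (39.3%, against 9.93%). AAGATGGC, searched on both strands of the same window, was in 6 (9.84%, against 3.19%). Of 9 promoters of the kinases and Rps19bp1, 0 held CTTTCC or AAGATGGC and 1 held CCGGAAG. A match is a description of the letters and not of a bound site.

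After removing barcodes under 500 genes or over 10% mitochondrial UMIs, the cells kept were 10076 in the sorted and 9367 in the total sample. They held 31220601 and 33498788 UMIs, with medians of 2294 and 1692 UMIs per cell. Between 3 and 13 barcode sequences were shared by a pair of sorted suffixes and between 0 and 4 by a pair of total suffixes, and 0 were shared between the samples. Whether the libraries of the samples used different barcode lists was not tested. Clusters were built without any ribosomal protein feature and named by markers, with names that end in -like. The sorted sample held 10 named classes of at least 100 cells and the total sample 8.

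Lymphocytes gave the largest part of their RNA to these genes, and neurons, astrocytes and oligodendrocyte precursors the smallest. The summed share, the UMIs of the 91 genes as a percentage of all UMIs of a class, was 34.97% (interval 34.90 to 35.04%) in T cell-like cells of the sorted sample. It was 23.02% in B cell-like and 21.74% in NK cell-like cells, 20% in border macrophage-like cells and 19% in monocyte-like cells. The T cell-like suffixes, at 31.86 to 38.16%, lay above every suffix of the B cell-like cells, at 20.24 to 25.10%. The B cell-like, border macrophage-like (18.24 to 23.22%) and monocyte-like (18.37 to 19.55%) suffix ranges touched or overlapped their neighbours in this order.

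The other 5 named classes of the sorted sample had lower shares than these 5. Fibroblast-like cells were at 11.17%, endothelial-like cells at 10.38% and microglia-like cells, the resident macrophages of the brain, at 9.62% (suffixes 8.33 to 10.3%). Choroid plexus epithelial-like cells, which secrete cerebrospinal fluid, were at 5.94% and oligodendrocyte-like cells at 5.76%. The fibroblast-like (10.08 to 11.55%) and microglia-like suffix ranges overlapped, so these neighbours did not differ beyond their spread. Unnamed cluster 11 (145 cells) was at 5.76%. Its leading genes hold the neutrophil markers S100a8 and S100a9 beside the ependymal markers Tmem212 and Ccdc153, so it may mix cell types. In the choroid plexus-like cells, Ttr alone, the transthyretin messenger they secrete, took 39.7% of the UMIs, which bears on every share of that class.

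Among the named classes of the total sample the microglia-like cells ranked first, at 9.55% (suffixes 7.81 to 11.9%), followed by choroid plexus-like cells at 6.96%, endothelial-like cells at 6.22%, fibroblast-like cells at 4.42% and oligodendrocyte-like cells at 3.45%. Oligodendrocyte precursor-like cells were at 1.88%, astrocyte-like cells at 1.43% and neuron-like cells at 1.32% (interval 1.32 to 1.33%, suffixes 1.25 to 1.39%). The neuron-like suffixes lay within those of the astrocyte-like cells (1.05 to 2.18%). Both classes lay below every suffix of the microglia-like, choroid plexus-like, endothelial-like and oligodendrocyte-like cells.

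**Figure D1:**
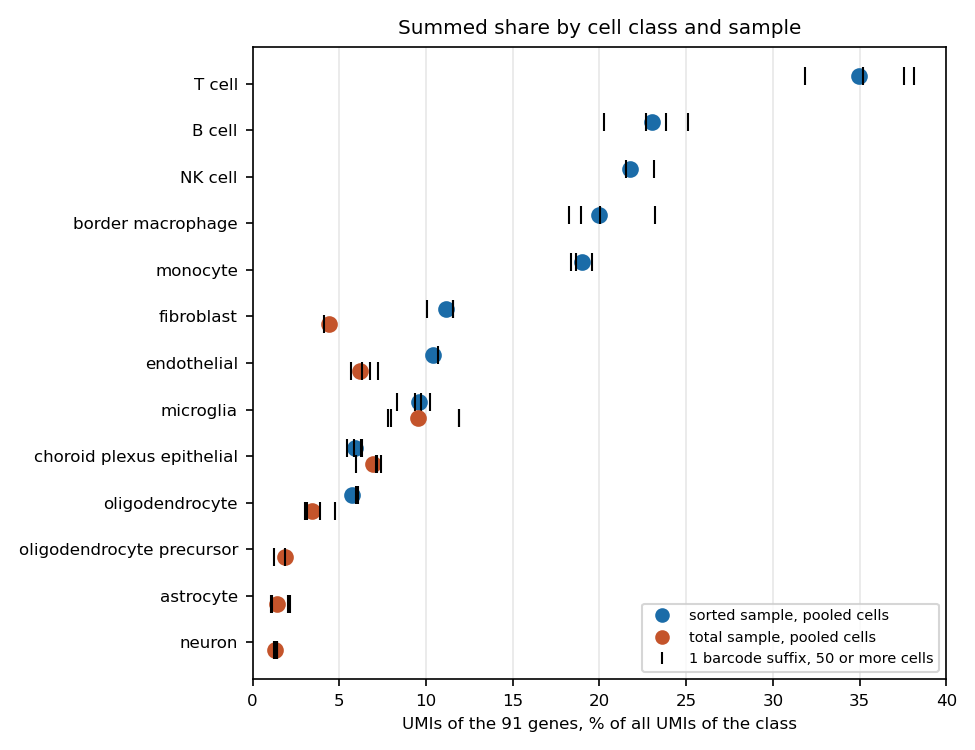
UMIs of the 91 genes as a percentage of all UMIs (x axis) in each named class (y axis, names without the ending -like). Filled circles are the pooled cells of the sorted (blue) and total (orange) sample and black ticks single barcode suffixes with at least 50 cells; shares run from 1.32% in neuron-like to 34.97% in T cell-like cells.

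The 2 subunits did not keep a fixed ratio. Large-subunit genes held 1.12 times as many UMIs as small-subunit genes in T cell-like cells, 1.11 times in monocyte-like cells and 1.16 (sorted) and 1.15 (total) times in microglia-like cells. The ratio was 1.52 in neuron-like, 1.45 in astrocyte-like and 1.39 in oligodendrocyte precursor-like cells. The choroid plexus-like ratio was 1.45 in the sorted and 1.32 in the total sample, where the large-subunit gene Rpl41 alone took 8.24% and 5.52% of the UMIs of the 80 ribosomal protein and paralogue genes. These classes also differ in summed level, so the ratios describe the captured RNA and not assembled subunits.

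Classes of the total sample with a low summed share had a high share of nuclear-retained RNA. Malat1 took 5.05% of the UMIs in neuron-like, 6.89% in astrocyte-like and 5.45% in oligodendrocyte precursor-like cells, against 2.03% in total microglia-like and 0.0949% in total choroid plexus-like cells. Over the 17 clusters of the total sample with at least 50 cells, Spearman's rho between the summed share and the Malat1 share was −0.72; over the 14 sorted clusters it was −0.02. These are descriptions over clusters that share a library, and both shares have the same denominator. Sorted fibroblast-like cells show that both can be high, with 6.45% Malat1 beside a summed share of 11.17%.

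A negative relation was also seen among cells within the named classes of the total sample, and within several of the sorted sample. Over 568 microglia-like cells, rho between a cell's summed share and its Malat1 share was −0.80, against −0.25 over 4439 sorted microglia-like cells. It was −0.68 over 125 fibroblast-like, −0.61 over 778 endothelial-like and −0.33 over 5485 neuron-like cells of the total sample. The correlation with depth differed between these classes: rho with the UMI count per cell was 0.61 in endothelial-like and −0.30 in neuron-like cells. Whether low-share barcodes hold nuclei was not tested, because no count of intronic reads was used here.

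**Figure D2:**
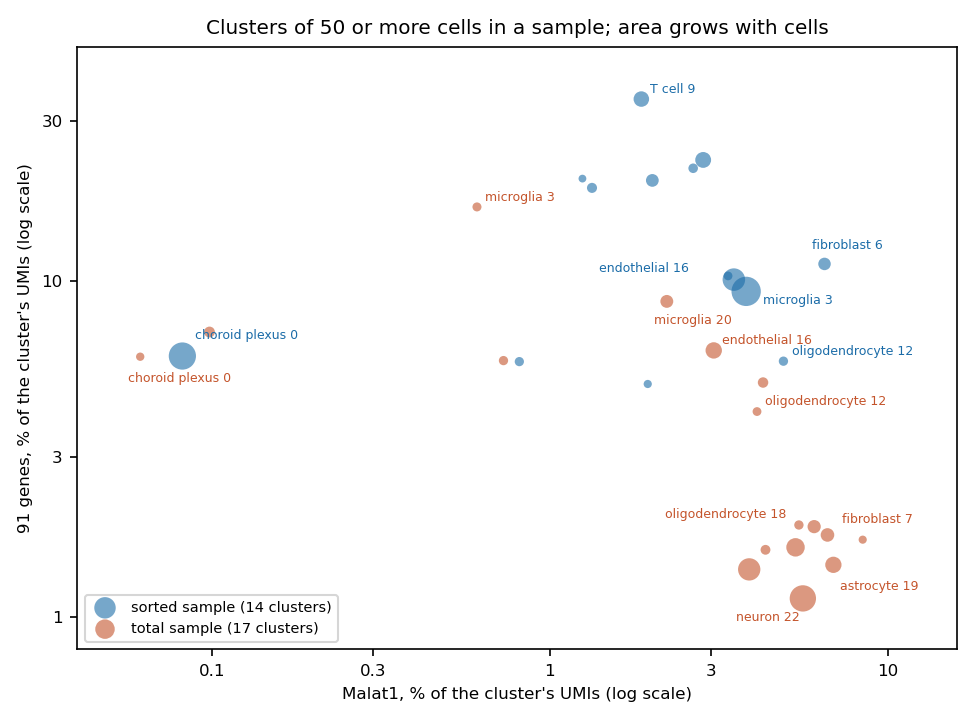
Each circle is a cluster of at least 50 cells in a sample, with the Malat1 share of its UMIs (x axis, log scale) against the summed share of the 91 genes (y axis, log scale) and an area that grows with its number of cells. Total-sample clusters of neuron-like, astrocyte-like, fibroblast-like 7 and oligodendrocyte-like 18 cells lie at the lower right, below 2% on the y axis, while sorted clusters of like Malat1 share lie higher.

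To compare single cells at 1 depth, each cell was thinned to 500 UMIs, which left out 0 cells. The share of cells with under 5% of their UMIs in these genes was then 98.5% of neuron-like, 99.7% of astrocyte-like and 98.0% of oligodendrocyte precursor-like cells, and without thinning 98.7%, 99.7% and 98.7%. It was 0.147% of T cell-like cells (interval 0.00371 to 0.814%) with and without thinning. The same class could differ between samples: 91.9% of total and 23.0% of sorted oligodendrocyte-like cells lay below 5%, as did 56.3% of total and 3.51% of sorted endothelial-like cells. For microglia-like cells these shares were 28.9% and 4.82%, although their summed shares were close. For choroid plexus-like cells they were 29.6% in the total and 38.1% in the sorted sample.

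The barcodes left out by the filter give a level for shallow droplets. Barcodes under 500 genes had a summed share of 0.798% in the total sample (2941 barcodes) and 4.10% in the sorted sample (2747 barcodes). Barcodes with over 10% mitochondrial UMIs had 4.75% and 6.86%. The neuron-like share of 1.32% thus lay above that of the shallow total barcodes and below that of every sorted class.

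Within classes, clusters of the total sample split by summed share. Microglia-like cluster 3 of the total sample (132 cells, median 1678 UMIs) had 16.67% in these genes and 0.609% Malat1, while cluster 20 (424 cells, median 6616 UMIs) had 8.71% and 2.22% Malat1. In the sorted sample cluster 3 held 2819 cells at 9.33%, and cluster 5, led by the chemokine genes Ccl4 and Ccl3, held 1601 cells at 10.1%. The total suffixes fell apart in pairs, at 11.9% and 11.9% for suffixes 1 and 2 and 7.81% and 8.01% for suffixes 3 and 4. Their Malat1 shares were 1.42% and 1.79% against 2.37% and 2.34%, and their shares of cells in cluster 3 were 23.8% and 28.7% against 20.5% and 22.4%. The part of these in the difference between suffixes was not tested, and no label says what a suffix is.

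Oligodendrocyte-like cells of the total sample were split the same way. Cluster 12 (119 cells, median 13515 UMIs) had a summed share of 4.09%, against 5.78% for the same cluster in the sorted sample (150 cells). Cluster 18 (488 cells, median 1022 UMIs) had 1.75% and 6.62% Malat1, and the sorted sample held 2 of its cells. Fibroblast-like cluster 7, with collagen and Dcn among its leading genes, had 1.70% (80 cells, total), against 11.27% for fibroblast-like cluster 6 of the sorted sample (390 cells). The 5 neuron-like clusters lay between 1.13% (cluster 22, led by Camk2a and Slc17a7) and 1.86% (cluster 26, led by Rgs9 and Adcy5).

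Among single genes, Rpl41 and Rps29 had the highest levels. Levels are counts per 1000000 UMIs of the class or sample (CPM), not divided by length, since the library reads 1 end of each molecule. Rpl41, which codes for the smallest ribosomal protein, was at 4421 CPM over all kept sorted cells (rank 9 of all features) and 1289 CPM in the total sample (rank 31). Rps29, a small-subunit protein with a zinc finger, was at 4176 and 1442 CPM. Rpl13, at 2689 and 1100 CPM, and Rpl37a, at 2835 and 963 CPM, both of the large subunit, were also among the highest.

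Ribosomal proteins are needed in equal copies, yet the counted levels ranged widely. Rps12 had 49.3 and 25.5 CPM, Rpl10 71.8 and 22.4 CPM, Rpl27 88.9 and 25.7 CPM and Rps27 264 and 42.5 CPM in the sorted and total samples. These low genes share their transcript ends with other listed genes. Of the stretches of 50 bases in the last 400 bases of the transcript (GENCODE M21), 96.0% of those of Rps12 also lay in Rps12-ps3, 100% of Rpl10 in Rpl10-ps3, 88.0% of Rpl27 in Rpl27-ps3 and 98.6% of Rps27 in Rps27rt. The 13 genes with at least 50% shared with another listed gene had a median of 497 CPM in the sorted sample, against 1422 CPM for the other 67. The sources used here do not say how reads with several matching genes were counted, so the levels of these 13 genes are uncertain. The overlap was read on a single transcript per gene, the longest principal one, whose end may not be the end that was counted.

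The make-up of the summed share was similar across classes, with a few exceptions. For each gene, its share of the UMIs of the 80 ribosomal protein and paralogue genes was compared between the highest and the lowest class of a sample. In the sorted sample 71 genes had a class-averaged level of at least 500 CPM, and the median log2 range over 10 classes was 0.66, with 56 below 1. In the total sample it was 0.76 over 8 classes for 46 genes, with 34 below 1. Rpl23, at 1.22 to 1.43% of the 80 genes in every sorted class, had the smallest range, 0.24. Ranges of the CPM levels themselves were wider, with a median of 2.72 for the 71 genes against 2.98 for the 265 features of at least 500 CPM in the sorted sample, and 3.15 against 3.98 (46 genes and 181 features) in the total sample.

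Rpl41 had the most uneven share of the 46 genes of at least 500 CPM in the total sample, with a log2 range of 1.73. It took 8.24% of the UMIs of the 80 genes in choroid plexus-like cells of the sorted sample, 5.12% in fibroblast-like, 4.72% in endothelial-like and 2.49% in T cell-like cells. Its total-sample share was 5.52% in choroid plexus-like and 1.66% in microglia-like cells. Choroid plexus-like cells were thus highest in both samples. Of the 50-base stretches of its transcript end, 66.7% are shared with Gm10076, a listed gene, so its level is uncertain too.

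Rpl38, a large-subunit protein known for a part in the translation of Hox messengers, was 2.78% of the 80 genes in endothelial-like and 1.14% in sorted microglia-like cells. Its total-sample values were 3.57% in neuron-like, 2.92% in endothelial-like and 1.15% in microglia-like cells. Rpl37 was likewise high in neuron-like cells, at 3.72%, with 1.66% in total choroid plexus-like cells. Rps9 and Rps3, both of the small subunit, were low there: Rps9 was 0.806% in neuron-like and 1.96% in total microglia-like cells, and Rps3 0.686% and 1.53%. The transcript ends of these 4 genes share no stretch with a listed gene, although 64.7% of that of Rps9 also lies in Gm5905, which is not listed.

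Rps29 was highest in sorted microglia-like cells, at 5.72% of the 80 genes, and lowest in oligodendrocyte-like cells, at 2.75%. Among total-sample classes the neuron-like cells were highest, at 4.6%, and microglia-like cells were at 3.98%. Rpl12, which lies at the base of the ribosomal stalk, ran from 0.276% in sorted endothelial-like to 0.891% in T cell-like cells, a log2 range of 1.68. Its low end rested on 60 UMIs. Rpl28 ran from 0.538% in T cell-like to 1.25% in oligodendrocyte-like cells. Rpl13 reached 4.81% in oligodendrocyte precursor-like cells, on 316 UMIs, against 1.78% in total choroid plexus-like cells.

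**Figure D3:**
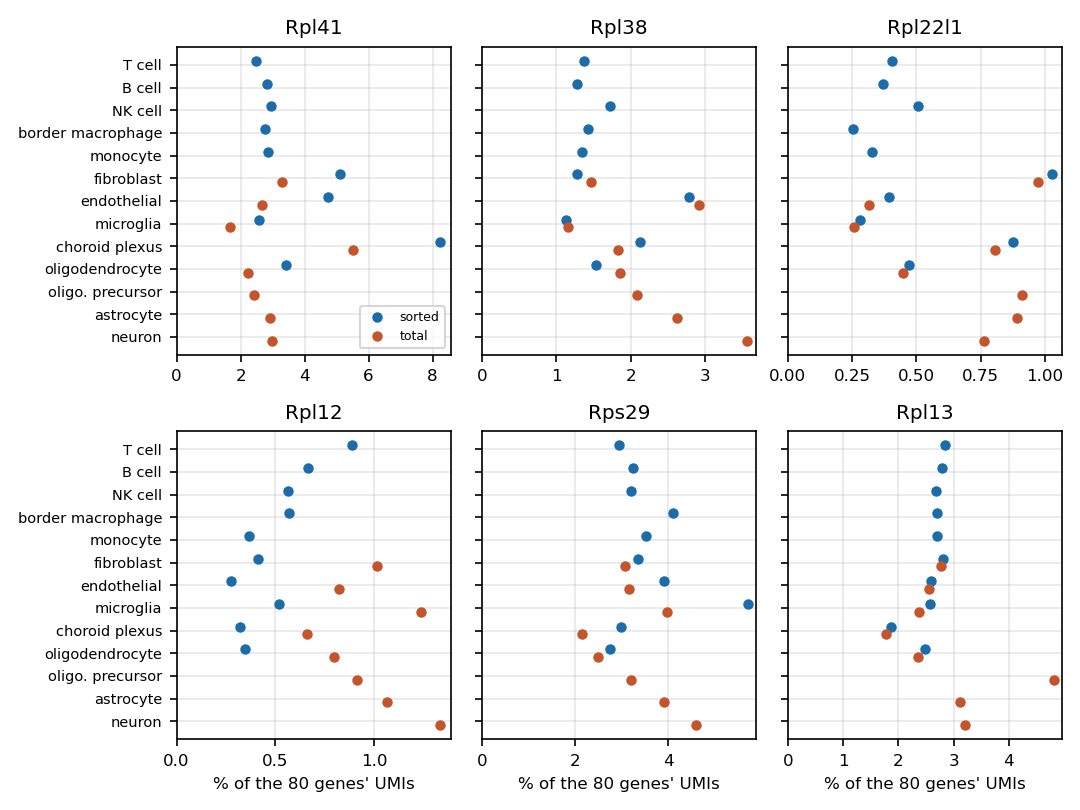
Share of the UMIs of the 80 ribosomal protein and paralogue genes (x axis, in percent, starting at 0) taken by 6 genes in each class (y axis, names without the ending -like), for the sorted (blue) and total (orange) sample. Rpl41 lies highest in choroid plexus cells of both samples and Rpl38 in neuron and endothelial cells, while Rpl12 lies higher in every total-sample class than in the same class of the sorted sample.

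Paralogues had their own class patterns. Rpl22l1, a copy of Rpl22 that can take its place in the ribosome, had the widest range of the 71 sorted genes of at least 500 CPM, 2.02, from 0.254% of the 80 genes in border macrophage-like to 1.03% in fibroblast-like cells. It was at 1147 CPM in sorted fibroblast-like cells beside 455 CPM of Rpl22, and at 519 CPM in choroid plexus-like cells beside 270 CPM of Rpl22. In microglia-like cells the order was the other way, with 268 CPM of Rpl22l1 and 469 CPM of Rpl22 in the sorted sample and 244 and 914 CPM in the total sample.

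Rps27l, a copy of Rps27 known as a target of p53, averaged under 500 CPM over the classes but had a wider range, 3.98 in the sorted and 3.19 in the total sample. It was highest in choroid plexus-like cells, at 529 CPM in the sorted and 552 CPM in the total sample, and was at 10.6 CPM in neuron-like cells. Rps27rt was at 856 and 138 CPM over all cells of the sorted and total samples, above Rps27 itself, but 91.1% of its transcript end is shared with Rps27 and the pair cannot be told apart with certainty. Rpl36al reached 677 CPM in monocyte-like cells and 28.7 CPM in neuron-like ones, which also differ in summed share. As a share of the 80 genes it was highest in choroid plexus-like cells, at 0.59% (sorted) and 0.48% (total). That share was 0.357% in monocyte-like and 0.234% in neuron-like cells. Rpl7l1, at 103 CPM, was highest in sorted microglia-like cells. Rpl39l, a copy of Rpl39 known from testis, had 55 UMIs in all, 29 of them in 29 of 4439 sorted microglia-like cells. Rpl39l reached the UMI minimum for the genes only with these 29, so this count follows in part from that choice.

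Rpl3l, a copy of Rpl3 known from heart and skeletal muscle, had 61 UMIs over both samples. Of its 38 UMIs in the sorted sample, 30 lay in 28 of 202 monocyte-like cells, which is 13.9% of them (interval 9.41 to 19.4%). The interval takes cells of 1 sample as independent. Rpl3l reached the UMI minimum for the genes only with these 30 UMIs, so the monocyte-like count follows in part from that choice. Among unnamed sorted cells it had 5 UMIs in 5 of 236 cells (2.12%). It had 1 UMI in 719 B cell-like cells (0.139%) and 1 in 412 border macrophage-like cells (0.243%), at median depths of 1527 and 2632 UMIs against 2565 in monocyte-like cells. No stretch of its transcript end is shared with a listed gene. In the total sample it had 11 UMIs in 5485 neuron-like and 7 in 766 astrocyte-like cells.

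The same classes were compared between the samples gene by gene, as log2((total CPM + 1)/(sorted CPM + 1)) for features with at least 50 CPM in either. The comparisons share the same 2 libraries. Different clusters held most of the class in each sample for microglia-like (3 and 5 sorted, 20 total), choroid plexus-like (0 and 1), oligodendrocyte-like (12 and 18) and fibroblast-like (6 and 7) cells; endothelial-like cells came from cluster 16 in both. Scaling by TMM, which assumes that most features are alike, lowers every ratio by 0.36 in microglia-like, 0.59 in choroid plexus-like, 0.29 in oligodendrocyte-like, 0.05 in endothelial-like and 0.71 in fibroblast-like cells.

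In microglia-like cells the summed shares were close, at 9.62% and 9.55%, while single genes differed in both directions. Of 81 genes tested, 4 were at least 2-fold higher in the total sample (20% of all features, 706 of 3535) and 8 at least 2-fold lower (2.35% of all features). Only the lower count was a larger part of the 81 genes than of all features. The median log2 ratio was −0.06, against −0.04 over all features. After TMM scaling the counts were 1 and 14. The suffix ranges of the samples did not overlap for 14 genes that were higher (28.0% of all features) and 18 that were lower (24.3%) in the total sample. Both counts were smaller parts of the 81 genes than of all features. In cluster 3 alone, 23 genes were at least 2-fold higher (9.96% of all features) and 5 lower (24.4%). Mitochondrial UMIs were 1.35% of the class in the sorted and 3.63% in the total sample, and 1.36% and 5.21% in cluster 3. Of 12 mitochondrially encoded genes tested in the class, 11 were at least 2-fold higher in the total sample and 0 lower, and Malat1 was 3.67% and 2.03% of the UMIs. The part of these in the differences was not tested.

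Rps21 of the small subunit was at 837 CPM in the sorted (suffixes 592 to 918) and 2176 CPM in the total sample (1989 to 2766), a log2 ratio of 1.38. Rpl30 was at 834 and 2017 CPM (1.27), Rpl12 at 497 and 1176 CPM (1.24) and Rps10, a small-subunit protein at the messenger's entry, at 870 and 1800 CPM (1.05). Rpl5, which carries the smallest RNA of the large subunit and binds Mdm2, was at 577 and 1152 CPM (1.00). The suffixes of the 2 samples did not overlap for any of these 5 genes, and all 5 ratios stay above 0 after TMM scaling. The 5 genes were chosen by their ratios in the same cells, so both readings follow in part from that choice and are no separate support.

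Rpl23a, at the exit of the peptide tunnel, was at 1948 CPM in the sorted (suffixes 1798 to 2056) and 722 CPM in the total sample (597 to 884), a log2 ratio of −1.43. Rpl35, also at the tunnel exit, was at 852 and 321 CPM (−1.40), Rpl13a, known for a part in silencing translation after interferon gamma, at 641 and 248 CPM (−1.37), and Rps27 at 213 and 84.5 CPM (−1.32). Rpl10 was at 100 and 38.3 CPM (−1.37). The suffix ranges did not overlap for any of these 5 genes, which were chosen by their low ratios in the same cells, so this is no separate support. In the transcripts used, Rpl23a and Rpl13a share no stretch of their end with a listed gene, while Rpl35 shares 92.0%. The Rpl13a transcript used was 1047 bases long, and its end may not be the end counted. Rpl13a-ps1, a listed gene, held 2814 UMIs over both samples. Unlisted pseudogenes hold 86.3% of the stretches of Rpl23a and 0% of those of Rpl13a.

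Choroid plexus-like cells had a log2 ratio of 0.23 for the summed share, which turns to −0.14 when the 50 most abundant other features are left out of the total. The TMM shift of 0.59 is larger than this ratio. Ttr alone took 39.7% of the UMIs of the sorted and 24.9% of those of the total class. This difference enters every share of the class, and its part in the ratios was not tested. Of 76 genes tested, 7 were at least 2-fold higher (18.6% of all features) and 2 lower (1.67%) in the total sample; with TMM scaling these were 0 and 8. Rpl30 was at 410 CPM in the sorted and 1068 CPM in the total sample (1.38), Rps10 at 482 and 1233 CPM (1.35) and Rps21 at 617 and 1520 CPM (1.30). Rps27 was at 101 and 44.4 CPM (−1.17) and Rpl35 at 626 and 294 CPM (−1.09). For Rps27 the suffix ranges, 57.7 to 139 and 23.4 to 65.5 CPM, overlapped. For the other 4 genes, chosen by their ratios in the same cells, they did not. Over the 76 genes the suffix ranges lay apart for 25 that were higher (46.8% of all features) and 8 that were lower (5.80%).

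In oligodendrocyte-like cells most genes were lower in the total sample. The log2 ratio of the summed share was −0.74, and −0.50 in cluster 12 alone. Of 78 genes tested, 22 were at least 2-fold lower (7.89% of all features) and 3 higher (33.3%), with a median log2 ratio of −0.82, against 0.27 over all features; TMM scaling gives 46 and 2. In cluster 12 alone 12 were lower (4.28% of all features) and 0 higher (22%). Rpl35 was at 448 CPM in the sorted and 96.7 CPM in the total sample (−2.20), Rpl13a at 327 and 83.4 CPM (−1.96) and Rpl23a at 993 and 263 CPM (−1.91). The 3 that were higher were kinases: Rps6kb2 (15.1 and 71.7 CPM), Rps6kb1 (36.6 and 101 CPM) and Rps6ka5 (25.8 and 61.6 CPM). The suffix ranges lay apart for 58 genes that were lower (23.9% of all features) and 4 that were higher (41.6%), with 2 sorted suffixes of at least 50 cells. Mitochondrial UMIs were 4.79% in the sorted and 5.61% in the total class and Malat1 was 4.93% and 4.79%; their part in the result was not tested.

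Endothelial-like and fibroblast-like cells, compared after the values were seen, also had lower levels in the total sample. Of 79 genes tested in endothelial-like cells, 25 were at least 2-fold lower (12.7% of all features) and 2 higher (26.4%), with a median of −0.76 against 0.19 over all features. Of 82 in fibroblast-like cells, 61 were lower (18.2%) and 3 higher (38.7%), with a median of −1.36 against 0.38. Malat1 was 3.37% and 3.05% of the endothelial-like and 6.45% and 7.62% of the fibroblast-like cells in the sorted and total samples. Mitochondrial UMIs were 4.03% and 6.92% of the endothelial-like and 4.84% and 5.08% of the fibroblast-like cells. Haemoglobin RNA was 3.85% and 2.72% of the endothelial-like cells. The part of these in the differences was not tested.

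**Figure D4:**
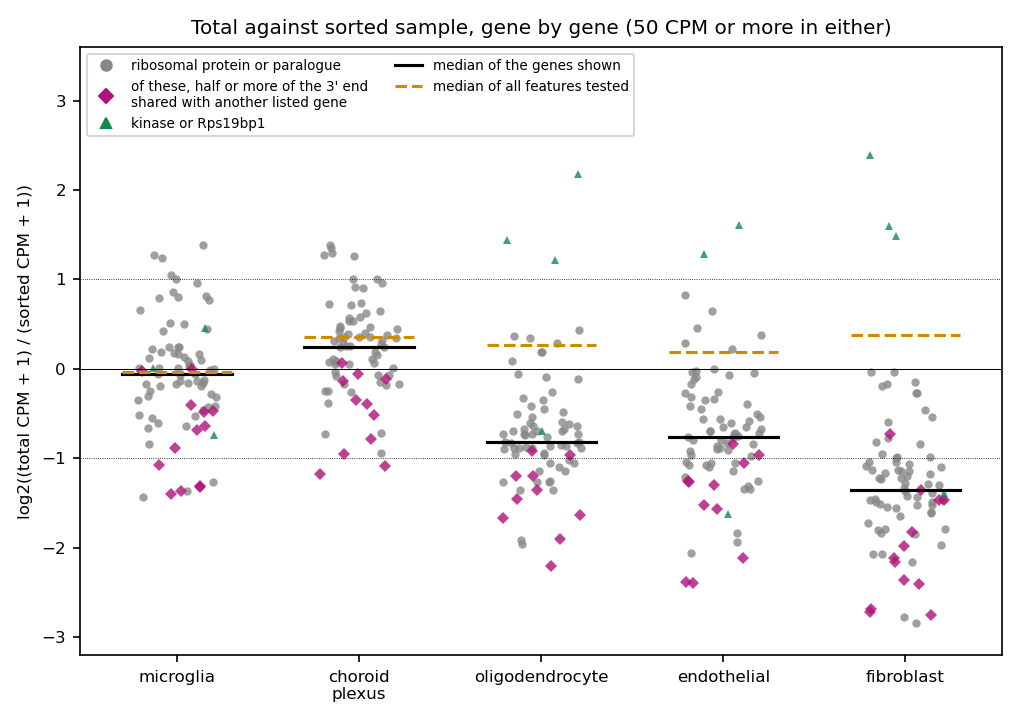
Log2 ratio of total to sorted CPM with 1 added (y axis) for each of the 91 genes with at least 50 CPM in either sample, in 5 classes (x axis). Black bars are the medians of the genes shown (−0.06, 0.25, −0.82, −0.76 and −1.36), dashed bars those of all features, dotted lines mark 2-fold, and diamonds mark the genes with shared transcript ends, most of which lie below the median of their class.

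The genes with the highest and lowest ratios in microglia-like cells were followed over the 5 classes, against the median of the 74 ribosomal protein and paralogue genes tested in each. Keeping to 1 side was common: of the 74, 30 lay above this median in every class and 26 below or at it in every class. Rpl12 lay 1.02 to 1.59, Rps21 1.05 to 1.44 and Rpl30 1.13 to 1.34 log2 units above that median. Rpl35 lay between −1.62 and −1.34, Rpl23a between −1.46 and −1.08 and Rpl13a between −1.40 and −0.98. Because every class compares the same pair of libraries, these are repeated readings of 1 pair and not independent ones. The file headers name Cell Ranger 3.0.2 for the sorted and 3.1.0 for the total table, and the chemistry version of the libraries may differ too. The part of these differences in the values was not tested.

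Genes with shared transcript ends had lower ratios than the rest. The median log2 ratio of the 13 such genes was −0.68 in microglia-like cells, against 0.01 for the others, −0.39 against 0.32 in choroid plexus-like, −1.41 against −0.73 in oligodendrocyte-like, −1.30 against −0.70 in endothelial-like and −2.11 against −1.28 in fibroblast-like cells. Some genes with no shared stretch in the transcript used, such as Rpl31 at −1.26 in microglia-like cells, were as low.

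The 11 genes that only share the name behaved unlike the ribosomal proteins. They took 7.39% of the UMIs of the 91 genes in neuron-like, 4.90% in astrocyte-like and 3.51% in oligodendrocyte precursor-like cells, but 0.0582% in T cell-like cells. Leaving them out would lower the neuron-like share by that part. Rps6kb1 and Rps6kb2, the S6 kinases that act downstream of mTOR and phosphorylate the Rps6 protein, were at 193 and 272 CPM in neuron-like cells and at 191 and 186 CPM in astrocyte-like cells, against 44.9 and 17 CPM in sorted microglia-like cells. Neuron-like, astrocyte-like and precursor-like values are of the total sample, so class and sample cannot be told apart here. Both kinases were higher in total than in sorted oligodendrocyte-like cells. In microglia-like cells 3 of the 11 genes were tested between the samples, and 0 were at least 2-fold higher or lower.

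The RSK kinases, which act downstream of ERK, differed by class. Rps6ka1 was at 167 CPM in sorted and 169 CPM in total microglia-like cells, the highest of any class, and at 4.18 and 4.04 CPM in choroid plexus-like cells. Rps6ka2 was highest in neuron-like cells, at 144 CPM, and at 1.17 and 5.03 CPM in sorted and total microglia-like cells. Rps6ka3 reached 94.2 CPM in total endothelial-like cells and 84.4 CPM in the neuron-like class. Rps6ka6 was rare, with 106 UMIs over both samples.

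Of the MSK kinases, which phosphorylate histones, Rps6ka4 was at 38.4 CPM in the neuron-like class and 33.5 CPM in sorted microglia-like cells, and Rps6ka5 was highest, at 61.6 CPM, in total oligodendrocyte-like cells. Rps6kl1 was at 89.6 CPM in neuron-like and 49.6 CPM in oligodendrocyte precursor-like cells, against 1.57 CPM in total microglia-like cells. Rps6kc1 was at 52.3 CPM in the neuron-like class and 17 CPM in sorted microglia-like cells. Rps19bp1 was at 76.3 CPM in sorted fibroblast-like and 15.8 CPM in neuron-like cells. The neuron-like values are of the total sample, so where they stand beside a sorted class, class and sample cannot be told apart.

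**Figure D5:**
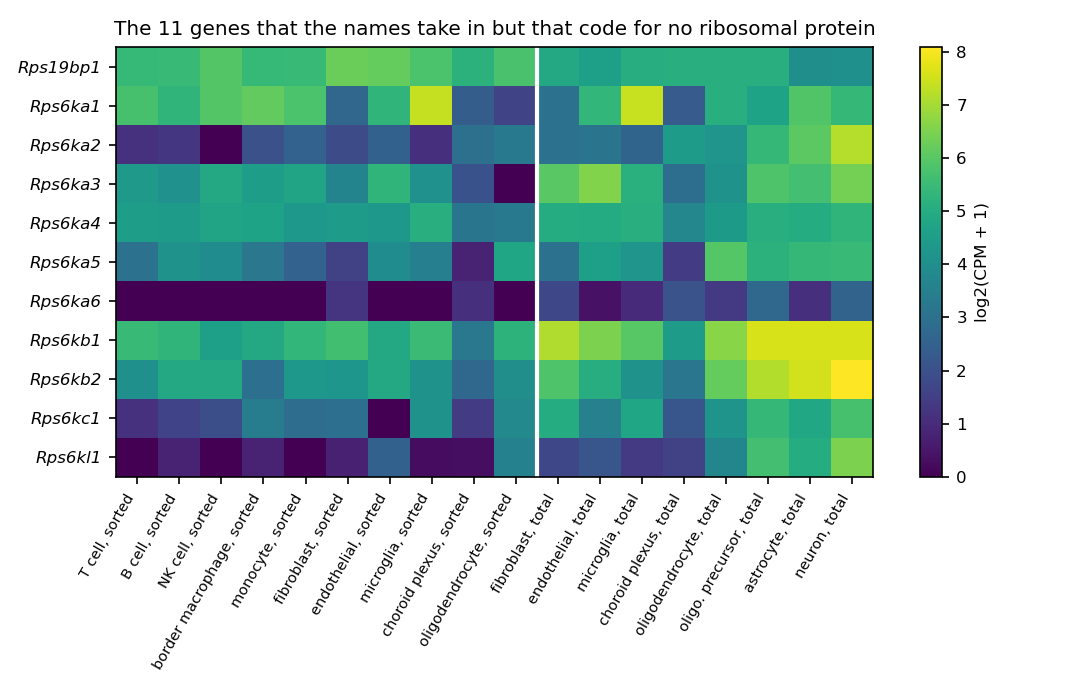
Level of the 11 genes that code for no ribosomal protein (y axis) in each class and sample (x axis, sorted left and total right of the white line), as log2(CPM + 1) in colour. Rps6ka1 stands out in microglia of both samples, at 167 and 169 CPM, and Rps6kb1, Rps6kb2, Rps6ka2 and Rps6kl1 in neurons.

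Genes of the same machinery that the name rule leaves out were followed in 3 classes. The 7 ribosomal protein genes named otherwise (among them Rplp0, Rplp1, Rpsa and Rack1) summed to 29488 CPM in T cell-like, 8988 CPM in sorted microglia-like cells and 1220 CPM in the neuron-like class. The 14 translation factors and other TOP messengers found summed to 18594, 6424 and 1744 CPM in these classes. Both lists kept the order T cell-like, microglia-like, neuron-like. The neuron-like values are of the total sample and the others of the sorted sample, so class and sample cannot be told apart in this order. The 18 ribosome biogenesis genes did not, at 1638, 993 and 1246 CPM. The 78 mitochondrial ribosomal protein genes were at 5547, 4300 and 2236 CPM.

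Between the samples, 2 of the 7 genes named otherwise were at least 2-fold higher in total microglia-like cells and 0 lower, among them Rack1 (344 and 828 CPM, 1.26) and Rpsa, the laminin receptor protein of the small subunit (518 and 1076 CPM, 1.05). Of the 14 TOP messengers 3 were higher and 0 lower: Tpt1 (1101 and 3976 CPM, 1.85), Eif3f (99.6 and 241 CPM, 1.27) and Eef1b2 (312 and 654 CPM, 1.07). In oligodendrocyte-like cells 0 of the 7 were higher and 2 lower, and of the 14, 0 were higher and 2 lower. Of the mTOR pathway list, 5 of 10 genes reached 50 CPM in each of these 2 classes, and 3 were higher and 0 lower in each. Larp1, which binds the TOP motif, had 35.7 and 87.4 CPM in sorted and total microglia-like cells (1.27), and 32.3 and 99.1 CPM in the oligodendrocyte-like classes (1.59). Of all features, 20% in microglia-like and 33.3% in oligodendrocyte-like cells were at least 2-fold higher, and 2.35% and 7.89% at least 2-fold lower, with medians of −0.04 and 0.27. Of the 78 mitochondrial ribosomal protein genes, 38 reached 50 CPM in microglia-like cells, with 1 higher, 0 lower and a median of −0.42. In oligodendrocyte-like cells 49 did, with 0 higher, 9 lower and a median of −0.69.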

How the data were processed

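Per the file headers and labels, 2 deposited tables of raw UMI counts were used, 1 per sample, made with Cell Ranger 3.0.2 (sorted) and 3.1.0 (total); the submitters' processing notes give 3.0.2 and mm10. The annotation release, the sort gate and the handling of reads with several matches are not stated in these sources. The tables held 0 columns of other samples. Depth was 36822467 UMIs in 13499 barcodes (sorted) and 48226525 in 14674 (total).

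Barcodes under 500 genes or over 10% mitochondrial UMIs were removed. All ribosomal protein features were removed before clustering in scanpy 1.11.5 (2000 variable genes, 30 principal components, 15 neighbours, Leiden resolution 1). A cluster took a class name when at least 50% of its markers, and at least 3, were raised 2-fold, and was left unnamed when another class led. Names were rebuilt here, and 20 marker lists were used. Doublets were called with Scrublet and kept: 85 sorted cells (0.844%) and 7 total cells (0.0747%), so the calls did not work in the total sample.

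Counts were summed per class and given as CPM with exact Poisson intervals, and shares with exact Clopper-Pearson intervals, at 95%. Ratios add 1 CPM. Classes needed 100 cells and suffixes 50. Named genes were the 5 of highest level, the 5 largest and 5 smallest ratios per class compared, the 6 of widest range within a sample, every paralogue, every gene of another kind, and at most 3 per list; others were chosen after their values were seen. Some single genes that this rule names are not reported here. The genes, lists and classes were chosen with earlier results of these data known. All 91 genes matched GENCODE M21 by ID. Start sites are RefSeq's. The ratios were checked on simulated counts. Alternatives were other cell filters, clusterings, weights, denominators, minimum levels, TMM and leaving out each suffix.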

Additional observations from a re-analysis of the deposited data

Results flagged for a closer look

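The summed share of the 91 genes differed between the samples in opposite directions in choroid plexus epithelial-like cells (log2 ratio of total to sorted 0.23) and in oligodendrocyte-like cells (−0.74). Without the 50 most abundant other features the choroid plexus ratio turned to −0.142, the same sign as in oligodendrocyte-like cells, and the TMM shift of 0.59 exceeds it. Ttr alone took 39.7% of the choroid plexus-like UMIs in the sorted and 24.9% in the total sample, and its part was not tested. The difference between the 2 ratios was not tested, since each group has 1 sample. The 9 features with -ps in the name, which the rule leaves out, held 34056 UMIs in the kept cells, among them 10311 of Rpl10-ps3 against 2991 of Rpl10 and 5820 of Rpl27-ps3 against 3637 of Rpl27. The transcript ends of these pairs are largely shared, so their UMIs cannot be told apart with certainty.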

How the results depend on the processing

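No paired analysis was possible because each group has 1 sample. The direction of the microglia-like ratio of summed shares (−0.009) is not settled: it was −0.036 and −0.078 under the looser and stricter cell filter, −0.031 at Leiden resolution 2, −0.080 as a mean over cells and −0.134 without the 50 most abundant other features, but 0.011 with each sample clustered alone, 0.072 with equal weight per suffix, 0.024 without mitochondrial genes, 0.038 with genes under 50% shared and 0.837 in cluster 3 alone, and it ran from −0.126 to 0.10 when a suffix was left out. In the same order of settings, the choroid plexus-like ratio (0.229) was 0.17 and 0.376 under the filters, 0.253 at resolution 0.5, 0.216 clustered alone, 0.213 with equal weight, 0.070 over cells, −0.142 without the abundant features, 0.309 with genes under 50% shared, and 0.191 to 0.287 without a suffix. The oligodendrocyte-like ratio (−0.742) was −0.820 and −0.507 under the filters, −0.700 without called doublets, −0.770 clustered with ribosomal protein features, −0.499 at resolution 0.5, −0.692 at resolution 2, −0.801 alone, −0.626 with equal weight, −1.432 over cells, −0.895 without the abundant features, −0.692 with genes under 50% shared, −0.499 in cluster 12, and −0.869 to −0.652 without a suffix. The neuron-like share (1.323%) was 1.475% and 1.199% under the filters, 1.309% at resolution 2, 1.340% alone, 1.347% with equal weight, 1.517% over cells, 1.348% without mitochondrial genes, 1.593% without the abundant features, 1.241% with genes under 50% shared, and 1.293 to 1.373% without a suffix.

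Of the counts of genes 2-fold apart, those in microglia-like cells (4 higher, 8 lower) became 7 higher with no minimum level, 1 and 14 with TMM and 23 and 5 in cluster 3, with 3 to 7 and 7 to 9 when a suffix was left out. Those in choroid plexus-like cells (7, 2) became 0 lower under the stricter filter, 1 and 8 without the abundant features and 0 and 8 with TMM, with 5 to 8 and 1 to 4 without a suffix. Those in oligodendrocyte-like cells (3, 22) became 0 and 14 under the stricter filter, 0 and 12 at resolution 0.5 and in cluster 12, 7 higher with no minimum, 37 lower without the abundant features and 46 lower with TMM, with 3 to 3 and 18 to 32 without a suffix. The cause was not tested, except that the single-cluster values use fewer cells by construction. Cluster 12, cluster 3 and the genes under 50% shared were chosen after seeing the data. Depth limits the rare paralogues and kinases, and the sorted endothelial-like class rests on 210133 UMIs.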
